A study of Mus musculus with 18 samples.

Results

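The imprinted growth genes H19, Igf2, Meg3, Dlk1, Cdkn1c, Plagl1, Peg3, Mest, Grb10 and Ndn were followed through RNA-seq of mouse marrow mesenchymal stem cells (MSC). They were chosen by name, as imprinted genes that regulate the growth of mesenchymal cells, and all 10 of them were found among the 54347 genes of the count table. Each of the 18 libraries came from C57BL/6J male marrow cells grown as a primary line from several mice, with 3 libraries in each of 6 groups. The first experiment compared untreated cells (control) with cells given CK666, which blocks the Arp2/3 complex that branches actin filaments, and with cells given cytochalasin D (CytoD), which caps and disassembles actin filaments. In the second experiment every group was transfected, with a control siRNA that the labels call mock (siControl), with an siRNA against Arp4, the nuclear actin-related protein encoded by Actl6a (siArp4), or with that siRNA followed by CK666 (siArp4+CK666). Drug exposure lasted a day in the first experiment. Doses are not given in the labels, and cells given both the control siRNA and CK666 were not analysed here.

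Imprinted genes are read mainly from the copy inherited from one parent, because a DNA methylation mark laid down in the germ line silences the other copy or moves an enhancer away from it. Many of them act on fetal and stem cell growth in opposing pairs: genes read from the paternal copy, such as Igf2, Dlk1, Mest, Peg3 and Plagl1, tend to favour growth, and genes read from the maternal copy, such as H19, Cdkn1c, Grb10 and Meg3, tend to restrain it. In mesenchymal tissues several of them are high in the embryo and are turned down together after birth. The mice were inbred, so the parental copies carry the same sequence, and only the summed RNA of both copies was measured.

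Of the 10 genes, 7 reached a count of 10 in at least 3 libraries. H19, Meg3 and Peg3 did not. Totals ran from 18075610 to 24733212 counts per library, and the 10 genes together took between 0.00283% and 0.0123% of them. Igf2 and Ndn held 77.9% to 92.4% of the counts of the 10 genes in a library, and with Grb10 added 92.5% to 99.6%. The siControl libraries stood farther apart than replicates of any other group. Their distances over the 1000 most variable genes were 59.97, 35.3 and 37.8, against 15.5 to 32.8 within the other groups. No replicates were repeats of the same library. Actl6a had 720 to 1127 normalized counts in siControl, 19.04 to 57.2 in siArp4 and 9.52 to 22.9 in siArp4+CK666, so the knockdown libraries matched their labels. Of 10 markers of mesenchymal stem cells 8 were measured at a count of 10 in 3 libraries, while Thy1 was listed at 0 in all 18 libraries and Nt5e did not pass. Of the blood cell markers 3 of 8 passed, with summed normalized counts of at most 311 in a library, against at least 32799 for the mesenchymal list, and the 5 endothelial markers summed to at most 26.1. The sum of 311 came from a single siArp4+CK666 library, in a group with a median of 75.8. Adgre1, Tyrobp and Ptprc were each at 0 in 17 of the 18 libraries. Lyz2 was the blood cell marker called in more than 1 comparison, higher with CytoD than in control (74.8 against 35.4 normalized counts) and than with CK666. Of the mesenchymal markers Ly6a, Cxcl12 and Cd44 were called in more than 1. Cxcl12 was higher with CytoD (107667 against 34517) and lower in siArp4 (12265 against 65306), Ly6a was lower with CK666 (213 against 444) and higher in siArp4 (2710 against 1015), and Cd44 was lower with CytoD (1365 against 2834).

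The start of Igf2 and the start of the neighbour of Ndn, Magel2, are shown because several of the results below turn on the RNA of these genes. Each is the 250 bases before a RefSeq transcript start on GRCm38.p6, written on the gene's own strand, with the CG dinucleotides that DNA methylation acts on in capitals. Igf2 has several starts, and the one farthest downstream, at chr7:142657497-142657746 on the minus strand, is shown. Magel2 is at chr7:62376729-62376978 on the plus strand. Neither window overlaps an annotated exon.
Igf2: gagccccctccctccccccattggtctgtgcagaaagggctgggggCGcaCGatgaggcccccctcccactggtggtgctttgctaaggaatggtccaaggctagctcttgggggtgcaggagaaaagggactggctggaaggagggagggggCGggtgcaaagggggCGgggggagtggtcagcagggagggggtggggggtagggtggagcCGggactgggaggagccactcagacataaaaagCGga
Magel2: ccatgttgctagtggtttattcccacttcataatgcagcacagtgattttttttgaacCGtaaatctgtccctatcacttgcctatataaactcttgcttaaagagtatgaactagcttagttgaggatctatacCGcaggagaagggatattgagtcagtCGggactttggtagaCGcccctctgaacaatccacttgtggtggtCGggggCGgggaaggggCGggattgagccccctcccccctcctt
The Igf2 window holds 6 CG dinucleotides and the Magel2 window 7, and 49.6% and 53.7% of 32851 windows of the same length hold fewer. The letters GGAATG, which the actin-responsive TEAD factors recognise, were searched on both strands and occur 1 time in the Igf2 window and not in the Magel2 window, and 12.6% of all windows hold them. The CArG box, which serum response factor reads, occurs in neither printed window and in 1.47% of all windows, and the E2F letters TTTCGCGC (0.256% of windows) and the CREB letters TGACGTCA (1.55%) occur in neither as well. Of the other 3 Igf2 starts in the table, which are not printed, the window at chr7:142661272-142661521 holds 1 CArG box and GGAATG 2 times, the window at chr7:142658805-142659054 holds GGAATG 1 time and no CArG box, and the window at chr7:142666817-142667066 holds neither. The first and second of these overlap exons of Igf2. These matches are descriptions of the letters and not of bound sites.

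Igf2 and Mest each also carry a microRNA in an intron, shown because their host genes were the members called after CytoD. Mature sequences are from RefSeq on GRCm38.p6, with the seed (bases 2 to 8) in capitals.
mmu-miR-483-5p, in Igf2: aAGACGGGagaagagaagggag
mmu-miR-483-3p, in Igf2: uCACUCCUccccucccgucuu
mmu-miR-335-5p, in Mest: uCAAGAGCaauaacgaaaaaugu
mmu-miR-335-3p, in Mest: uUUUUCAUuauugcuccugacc
The 4 seeds differ from each other. The libraries did not measure mature microRNAs, so nothing is said here of their levels.

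Scaled to the length of the annotated exons, Ndn was the highest member in every group and Igf2 the next. In control cells Ndn had 10.8 ± 0.390 CPM per kilobase of exon (SD, n = 3 here and throughout, where CPM scales each library to the same total), above 64.0% of the 12124 genes with a count of 10 in all 3 control libraries. Igf2 had 4.55 ± 0.181, above 40.4% of them. Grb10 had 0.695 ± 0.1005, Cdkn1c 0.538 ± 0.0670 and Mest 0.248 ± 0.0429, and Plagl1 and Dlk1 were near 0.1, at 0.108 ± 0.115 and 0.0791 ± 0.0228. These lengths are the union of all annotated exons, which is longer than most single transcripts.

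**Figure D1:**
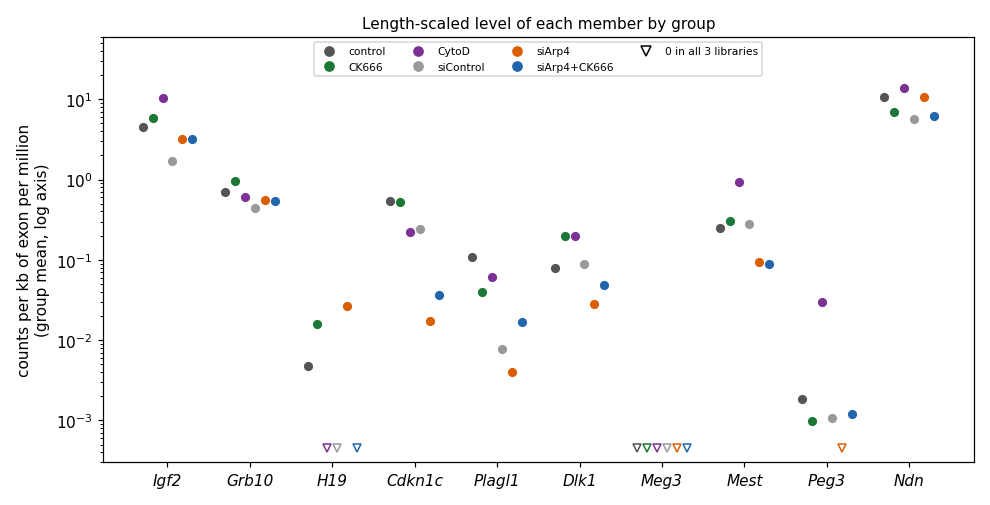
Group means of CPM per kilobase of exon (log axis) for the 10 genes, 6 groups of 3 libraries, with open triangles where all 3 libraries were at 0. Ndn and Igf2 lie between 1.73 and 13.9, Grb10 between 0.448 and 0.948, and Meg3 is at 0 in every group.

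**Figure D2:**
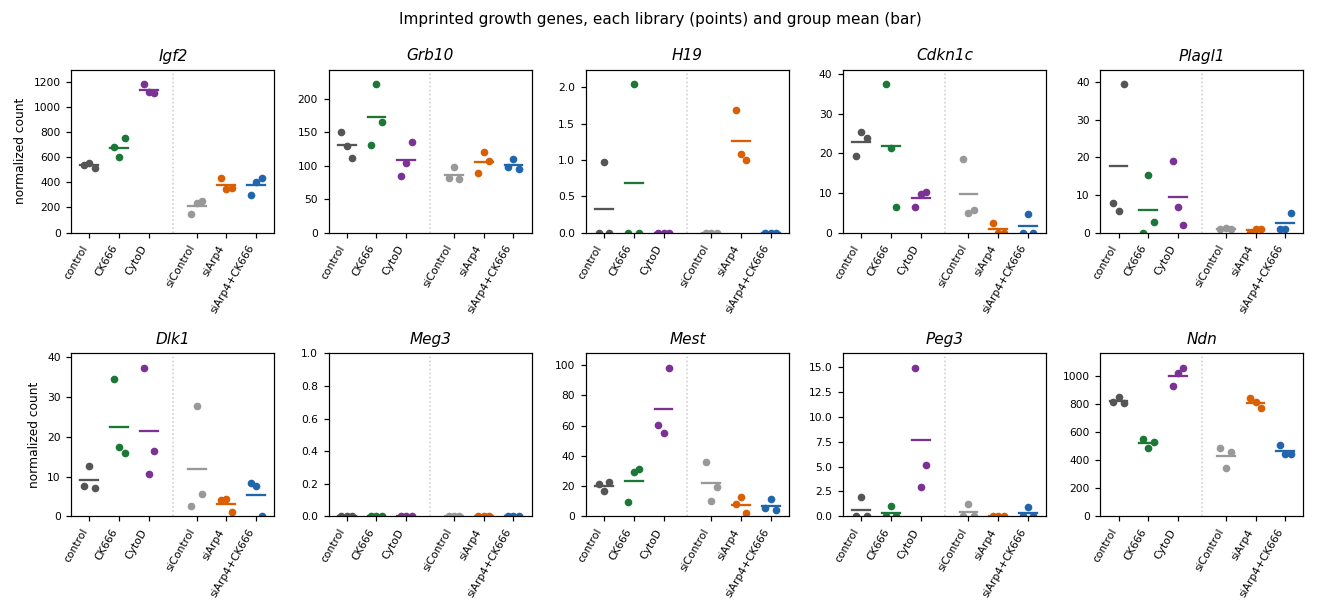
Normalized counts of the 10 genes in each library (points) and the group mean (bar), with a separate linear axis per gene and a dotted line between the experiments, which were scaled separately. Igf2 is highest in the 3 CytoD libraries, at 1109 to 1180, and Ndn is lower in CK666 and in siArp4+CK666 than in control and siArp4.

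Igf2 encodes insulin-like growth factor 2, a secreted growth factor that signals through the type 1 insulin-like growth factor receptor. It lies at chr7:142650766-142666816 on the minus strand. Counts of single genes below are normalized within each experiment, unless all 18 libraries are said to be scaled together. Summed marker counts throughout were scaled over all 18 libraries together. Igf2 had 541, 556 and 517 normalized counts in the control libraries, 678, 598 and 752 with CK666 and 1180, 1121 and 1109 with CytoD. All CytoD libraries lay above all CK666 libraries, and these above all control libraries. CytoD raised Igf2, with a log2 difference of 1.08 (SE 0.118, adjusted p = 2.22e-18), which was 2.11 times the control mean. The CK666 libraries had 1.26 times the control mean, with a log2 difference of 0.33 (SE 0.120, adjusted p = 0.0177). This missed the threshold of 0.01 and passed it without CK666 replicate 2 (adjusted p = 0.00250). Set directly against each other, CK666 was lower than CytoD by a log2 difference of -0.75 (SE 0.117, adjusted p = 1.66e-09). Some marker lists of other cell types moved with Igf2 in this experiment. The summed adipocyte markers were lowest in control (896 to 906 normalized counts) and higher with CK666 (1654 to 2469) and with CytoD (2213 to 2566), whose ranges overlapped. Fabp4 weighed most in that sum, with a mean of 1909 over all 18 libraries, and Adipoq came next with 197. The summed skeletal muscle markers ran in the order of Igf2 (708 to 786, 1001 to 1298 and 1352 to 1543). That list rested on Des, the only 1 of its 4 genes to reach a count of 10 in 3 libraries. The summed blood cell markers were 104 to 166 in control, 131 to 190 with CK666 and 257 to 267 with CytoD. There 2 of the 3 tested were called higher (Cd68 and Lyz2), against 4.80% of all genes. Of the same list Ptprc, Adgre1 and Tyrobp were at 0 in all 9 libraries of this experiment, while Cd68, Csf1r and Lyz2 reached a count of 10 in all 18 libraries. The part of these cell types in the level of Igf2 was not tested.

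In the transfected cells Igf2 started lower. The siControl libraries had 145, 235 and 252 normalized counts, the siArp4 libraries 437, 349 and 355 and the siArp4+CK666 libraries 297, 400 and 434. Every knockdown library, with or without CK666, lay above every siControl library. The log2 difference was 0.85 for siArp4 (SE 0.273, adjusted p = 0.00729) and 0.84 for siArp4+CK666 (SE 0.273, adjusted p = 0.00724). Both were past the adjusted p and below a fold of 2. The siArp4 result missed the adjusted p without siControl replicate 1 (0.0186) or any of the siArp4 libraries (0.0246 to 0.0696), and the siArp4+CK666 result missed it without siControl replicate 1 (0.0186) or siArp4+CK666 replicate 2 (0.0501) or 3 (0.0575). Both missed it with the edgeR quasi-likelihood test (0.0272 and 0.0249). The siArp4+CK666 and siArp4 libraries overlapped, with a log2 difference of -0.01 and a 95% interval from -0.54 to 0.52 (adjusted p = 0.989).

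With all 18 libraries scaled together, the order of Igf2 group means was CytoD at 1110 ± 37.6, CK666 at 652 ± 73.8, control at 524 ± 18.8, siArp4 at 390 ± 50.9, siArp4+CK666 at 382 ± 77.8 and siControl at 213 ± 59.6 normalized counts. The neighbours siArp4 and siArp4+CK666 in that order did not differ beyond their spread. Igf2 was lower in siControl than in control by a log2 difference of -1.30 (SE 0.202, adjusted p = 1.06e-09), a contrast in which transfection and experiment cannot be told apart. The read-through transcript Gm49394 shares 3596 exon bases with Igf2 on the same strand and had at most 9.09 counts in a library, and the antisense Igf2os shares 98 exon bases and had at most 10.2 counts.

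Grb10 encodes an adaptor that binds the insulin and insulin-like growth factor receptors and dampens their signal. It lies at chr11:11930508-12038683 on the minus strand. Its normalized counts were 150, 130 and 112 in control, 131, 221 and 165 with CK666 and 85.0, 105 and 135 with CytoD, and these groups overlapped. In transfected cells they were 81.3, 98.1 and 80.3 in siControl, 88.4, 121 and 107 in siArp4 and 98.3, 111 and 94.8 with siArp4+CK666. No comparison within an experiment passed the threshold, and the one nearest to it was CK666 against CytoD, with a log2 difference of 0.67 (SE 0.267, adjusted p = 0.0322). Without CK666 replicate 1 that difference was 0.83 (adjusted p = 0.00607). For CytoD against control the 95% interval ran from -0.80 to 0.26, and for siArp4 against siControl from -0.18 to 0.76. With all libraries scaled together the 6 group means of Grb10 lay between 87.4 and 166, a narrower range than those of Igf2 and Ndn.

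Insulin-like growth factor signalling needs more than its ligand, so 16 partners were listed, of which 12 reached a count of 10 in 3 libraries. Beside the rise of Igf2, CytoD changed 1 of the 11 partners tested past the adjusted p, against 29.6% of all genes, and none past a fold of 2. CK666 moved 6 of 11 past the adjusted p, 5 of them lower, against 30.0% of all genes in either direction. Among them Pappa, a protease that frees the growth factor from its binding proteins, fell from 80.9 to 24.6 normalized counts (log2 difference -1.72, SE 0.344, adjusted p = 4.31e-06). In siArp4 cells 3 of 13 were past the adjusted p, against 25.1% of all genes, and all 3 were higher. With so few partners these counts do not set the list apart from all genes. In siArp4+CK666 against siArp4, Pappa had 19.8 against 77.3 normalized counts with a log2 difference of -1.97 (SE 0.539, adjusted p = 0.00328), a call that missed the adjusted p in 5 of 6 leave-one-out fits, those without any siArp4 library or without siArp4+CK666 replicate 2 or 3 (0.0132 to 0.0598), and with edgeR (0.0451). Igf2r, whose product takes Igf2 into lysosomes and which is itself imprinted, had means of 4474, 4493 and 4693 normalized counts in control, CK666 and CytoD. Its means were 4274, 6859 and 8845 in siControl, siArp4 and siArp4+CK666, where the groups overlapped. Igf2r passed in no comparison and was picked after its values were seen.

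H19 is a long noncoding RNA next to Igf2, 72.6 kilobases away, and competes with it for a shared enhancer. It lies at chr7:142575529-142578143 on the minus strand. It was at 0 in 13 of 18 libraries. The others held at most 2.04 normalized counts, in CK666 replicate 2, and the 3 siArp4 libraries had 1.68, 1.08 and 1.002. A count of 0 allows up to 3 counts, which is 0.121 to 0.166 CPM in these libraries, so no difference in H19 was detectable at this depth. In every library H19 stood far below Igf2.

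Cdkn1c encodes p57, which holds cyclin-dependent kinases in check, and lies 792 kilobases from Igf2 at chr7:143458339-143461050 on the minus strand. It had 19.3, 25.3 and 23.8 normalized counts in control, 37.3, 21.4 and 6.51 with CK666 and 6.38, 9.68 and 10.3 with CytoD. All 3 CytoD libraries lay below all control libraries, with a log2 difference of -1.37 (SE 0.654, adjusted p = 0.0833), which missed the threshold. In siControl it had 18.4, 5.03 and 5.604 counts, and in siArp4 2.53, 0 and 0, with a log2 difference of -3.45 (SE 1.75, adjusted p = 0.116). The siArp4+CK666 libraries had 0, 4.77 and 0. The knockdown libraries were thus all at or below the lowest siControl library, at counts too low to pass. The antisense gene Gm44732 shares 625 exon bases with it and had at most 1.98 counts.

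Plagl1 encodes a zinc finger factor that binds promoters of other imprinted genes, and lies at chr10:13060504-13131694 on the plus strand. It had 7.74, 5.84 and 39.3 normalized counts in control, where replicate 3 stood above the others. With CK666 it had 0, 15.3 and 2.79, and with CytoD 19.1, 6.78 and 2.06. After transfection the siControl libraries had 0.838, 1.26 and 0.934, the siArp4 libraries 0, 1.08 and 1.002 and the siArp4+CK666 libraries 1.06, 0.954 and 5.27. No comparison within an experiment passed. The 3 siControl libraries together had a lower level than control (log2 difference -4.10, SE 1.43, adjusted p = 0.00972), which missed the adjusted p in 4 of the 5 leave-one-out fits that gave one, those without control replicate 1 (0.0120) or siControl replicate 1, 2 or 3 (0.0322, 0.0256 and 0.0348), and with edgeR (0.0179).

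Dlk1, a transmembrane protein of the Notch ligand type that holds preadipocytes undifferentiated, and Meg3, a noncoding RNA read from the other parental copy, share a domain on chromosome 12 and lie 77.7 kilobases apart, at chr12:109452823-109463336 and chr12:109541001-109571726 on the plus strand. Meg3 was at 0 in all 18 libraries. Dlk1 had 7.74, 12.7 and 7.24 normalized counts in control, 34.4, 17.3 and 15.8 with CK666 and 37.2, 10.6 and 16.5 with CytoD. Every CK666 library was above every control library, with a log2 difference of 1.29 (SE 0.645, adjusted p = 0.102), while the CytoD and control libraries overlapped. In the second experiment the values were 2.51, 27.7 and 5.604 in siControl, 4.21, 4.32 and 1.002 in siArp4 and 8.46, 7.63 and 0 with siArp4+CK666. A single library, siControl replicate 2, thus set the siControl mean. No comparison of Dlk1 passed. Dlk2, its relative outside imprinted domains, was called lower with CK666 (119 against 284 normalized counts, adjusted p = 8.10e-07), in siArp4 (33.1 against 144, adjusted p = 0.000174, and 0.0101 with edgeR) as well as with the knockdown and CK666 together (33.4 against 144, adjusted p = 0.000157). It shares 51 exon bases with Abcc10 on the other strand.

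Mest encodes a membrane protein of the hydrolase fold that is high in growing mesoderm and fat tissue, and lies at chr6:30723547-30748465 on the plus strand. It had 21.3, 16.6 and 22.8 normalized counts in control, 9.82, 29.6 and 31.6 with CK666 and 60.6, 55.2 and 97.9 with CytoD. All CytoD libraries lay above all others of the experiment. Mest was higher with CytoD by a log2 difference of 1.82 (SE 0.465, adjusted p = 0.000466), or 3.53 times the control mean, a call that was lost without CytoD replicate 3 (1.52, adjusted p = 0.0200). CK666 against CytoD gave a log2 difference of -1.59 (SE 0.460, adjusted p = 0.00210), which missed the adjusted p without CytoD replicate 3 (0.0458), without CK666 replicate 1 (0.0137), with edgeR (0.0140) and with all 18 libraries fitted together (0.0171).

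Mest, in transfected cells, had 36.0, 10.1 and 19.6 normalized counts in siControl, 8.42, 12.96 and 2.004 in siArp4 and 5.29, 11.4 and 4.22 with siArp4+CK666. The groups overlapped. The log2 differences from siControl were -1.51 (SE 0.796, adjusted p = 0.133) and -1.65 (SE 0.805, adjusted p = 0.0898). Mest shares 912 exon bases with Copg2, which runs on the opposite strand and had a mean of 1715 counts, and since the libraries did not keep strand, reads of that overlap could be assigned to either gene. The values of Mest are therefore uncertain. Copg2, named because of that overlap and after its values were seen, had means of 1035, 1751 and 1570 normalized counts in control, CK666 and CytoD, and of 784, 2272 and 2794 in siControl, siArp4 and siArp4+CK666. Copg2 was past the adjusted p with both drugs, and in the knockdown groups it rose where Mest had lower means.

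Peg3 encodes a large zinc finger protein tied to p53 and growth signalling, and lies at chr7:6703892-6730431 on the minus strand. It was at 0 in 11 of 18 libraries. The CytoD libraries had 14.9, 2.904 and 5.15 normalized counts and no other library had more than 1.95. CytoD against CK666 gave the only adjusted p for it within an experiment (0.0361), and the other comparisons were not given one for lack of counts.

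Ndn encodes necdin, a MAGE family protein that binds E2F factors and restrains cell division, and is known for its part in keeping blood stem cells quiet. It is a gene of a single exon at chr7:62346569-62350262 on the plus strand, in the domain whose human counterpart is lost in Prader-Willi syndrome. Ndn had 813, 851 and 802 normalized counts in control, 549, 484 and 525 with CK666 and 924, 1016 and 1052 with CytoD. The 3 groups did not overlap. CK666 lowered Ndn by a log2 difference of -0.66 (SE 0.110, adjusted p = 1.77e-08), to 0.632 times the control mean, while the CytoD mean was 1.21 times that of control (log2 difference 0.28, SE 0.107, adjusted p = 0.0262), short of the threshold. CK666 against CytoD gave -0.94 (SE 0.109, adjusted p = 1.51e-16). The summed mesenchymal markers had the same order as Ndn in this experiment, with 43812 to 48979 normalized counts with CK666, 69382 to 72491 in control and 132057 to 135717 with CytoD. Cxcl12 weighed most in these sums, with a mean of 42644 over all 18 libraries, and Itgb1 came next with 15162. The list itself was mixed with CytoD, where 2 of the 8 tested were past the adjusted p and higher and 2 lower (29.6% of all genes in either direction). With CK666 5 of 8 were past it, all lower (30.0%).

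In the transfected cells Ndn had 488, 343 and 459 normalized counts in siControl, 840, 814 and 772 in siArp4 and 508, 441 and 446 with siArp4+CK666. The siArp4 libraries lay above all others, and the siControl and siArp4+CK666 libraries overlapped. The knockdown raised Ndn, with a log2 difference of 0.91 (SE 0.182, adjusted p = 6.17e-06), to 1.88 times the siControl mean. With CK666 added to the knockdown it was lower than in siArp4 by a log2 difference of -0.80 (SE 0.182, adjusted p = 0.000206), and it differed from siControl by 0.11 (95% interval -0.25 to 0.47, adjusted p = 0.683). The fall from siArp4 to siArp4+CK666 missed the adjusted p without siArp4 replicate 1 (0.0178), siArp4 replicate 2 (0.0123) or siArp4+CK666 replicate 2 (0.0152), and with edgeR (0.0149). Here the summed mesenchymal markers did not have the order of Ndn, at 73087 to 100582 normalized counts in siControl, 35571 to 38886 in siArp4 and 32799 to 36603 with siArp4+CK666. Cxcl12, which weighed most in the sum, was lower in siArp4, while the median log2 difference of the 8 tested was -0.01. Of these 1 was past the adjusted p and higher and 2 lower, against 25.1% of all genes in either direction. The part of these markers in the level of Ndn was not tested.

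The effect of CK666 on Ndn was therefore measured in untransfected and in knockdown cells, and the difference of both effects was -0.14 on the log2 scale (SE 0.165, adjusted p = 0.655), with a 95% interval from -0.47 to 0.18. For Igf2 the same difference was -0.34 (SE 0.280, 95% interval -0.89 to 0.20, adjusted p = 0.492). None of the 6 members tested passed in this contrast by DESeq2 or edgeR, against 7.82% of all genes past the adjusted p and 4.42% past the fold as well, and none had an unadjusted p under 0.05. Transfection differs between the arms of this contrast too, and cannot be told apart from the knockdown in it.

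With all 18 libraries scaled together the order of Ndn group means was CytoD at 974 ± 64.3, siArp4 at 829 ± 35.0, control at 800 ± 26.0, CK666 at 501 ± 30.3, siArp4+CK666 at 470 ± 31.0 and siControl at 433 ± 70.5 normalized counts. siArp4 and control overlapped, and so did the neighbouring pairs among CK666, siArp4+CK666 and siControl. Ndn was lower in siControl than in control (log2 difference -0.88, SE 0.118, adjusted p = 1.28e-12), where transfection and experiment cannot be told apart. Because both genes are counted in the same library, the ratio of the Igf2 count to the Ndn count needs no scaling between libraries. It was 0.665, 0.654 and 0.645 in control, 1.24, 1.24 and 1.43 with CK666 and 1.28, 1.102 and 1.05 with CytoD. It was 0.298, 0.684 and 0.551 in siControl, 0.521, 0.429 and 0.458 in siArp4 and 0.584, 0.906 and 0.974 with siArp4+CK666. The ratio was thus higher in every CK666 library than in its group without CK666, with and without the knockdown.

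**Figure D3:**
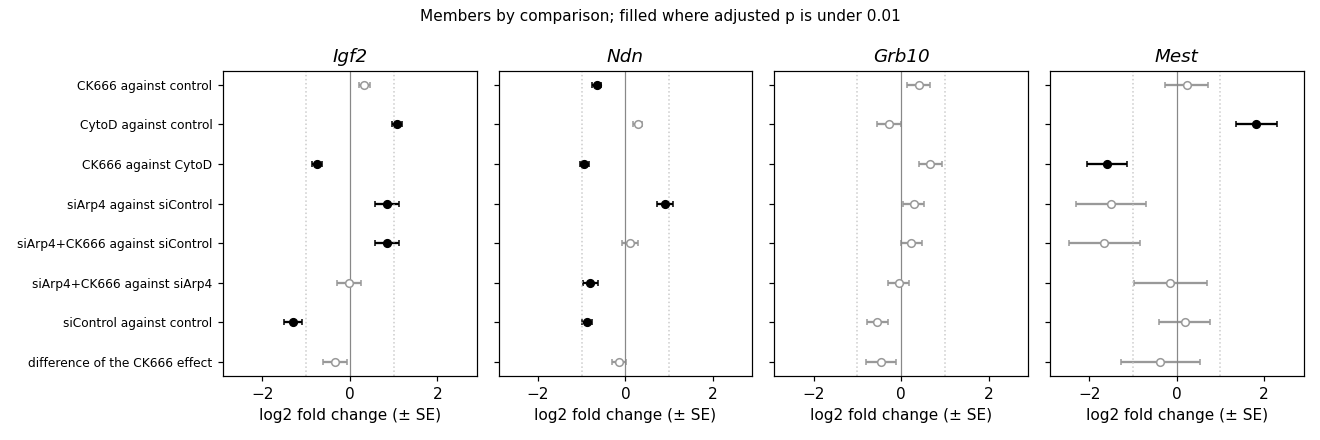
Log2 fold changes ± SE of Igf2, Ndn, Grb10 and Mest in the 8 comparisons, filled where the adjusted p was under 0.01, with dotted lines at a fold of 2. Ndn lies below 0 in both comparisons that add CK666 to cells (-0.66 and -0.80) and at -0.14 in their difference, and Igf2 is above 0 with CytoD (1.08) and in both knockdown groups (0.85 and 0.84).

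Counted over the members, CytoD against control called 2 of the 7 tested (Igf2 and Mest, both higher; called means a fold of over 2 and an adjusted p under 0.01), against 9.12% of all genes tested, of which the higher ones made up 4.80%. CK666 against control called none of 7, against 11.0% of all genes, and Ndn alone was past the adjusted p without the fold, which held for 30.0% of all genes. By edgeR too none was called. Unadjusted p-values under 0.05 were reached by 3 members there, Igf2, Ndn and Dlk1. CK666 against CytoD called 1 of 8 (Mest), against 11.8%, and 3 were past the adjusted p, against 31.8%. In siArp4 against siControl none of 6 was called by DESeq2 or edgeR, against 16.2%, while 2 were past the adjusted p (Igf2 and Ndn), against 25.1%, and 3 had an unadjusted p under 0.05. In siArp4+CK666 against siControl none of 6 was called by either tool, against 20.4%, while 1 was past the adjusted p (Igf2), against 29.9%, and 2 had an unadjusted p under 0.05. In siArp4+CK666 against siArp4 none of 5 was called by either tool, against 5.75%, and Ndn was the 1 member past the adjusted p, against 9.90%, and past an unadjusted p of 0.05. In siControl against control 2 of 7 were called (Igf2 and Plagl1, both lower), against 24.1% in either direction and 10.1% lower, and 3 were past the adjusted p, against 42.1%. The median log2 difference of the members tested was 0.23 with CK666 and 0.28 with CytoD, beside 0.01 for all genes in both, and -0.61 in siArp4, beside -0.05. With so few members these shares do not set the list apart from all genes. The comparisons of an experiment share their libraries, so these counts are not independent of each other.

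The neighbours of Ndn on chromosome 7 were read next. Magel2, another MAGE family gene of a single exon, starts 26.7 kilobases beyond it at chr7:62377010-62381640. Magel2 had 21.3, 25.3 and 19.7 normalized counts in control and was at 0 in all 3 CK666 libraries. Set against a floor of 3 counts per library, it was at least 7.53-fold lower with CK666 than in control (adjusted p = 1.33e-06). In the second experiment it had 6.71, 12.6 and 8.41 counts in siControl, 110, 107 and 68.1 in siArp4 and 1.06, 2.86 and 9.48 with siArp4+CK666. The knockdown raised it, with a log2 difference of 3.39 (SE 0.540, adjusted p = 5.63e-09), and CK666 on top of the knockdown lowered it by a log2 difference of -4.42 (SE 0.612, adjusted p = 3.52e-11), which was -5.57 without siArp4+CK666 replicate 3.

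Ndn and Magel2 were both lower with CK666 and both higher with the Arp4 knockdown, while with CytoD their means moved in opposite directions. There Magel2 had 4.25, 5.81 and 5.15 normalized counts, all below control (log2 difference -2.12, SE 0.713, adjusted p = 0.00987). Every Ndn library was above control, with an adjusted p of 0.0262 that missed the threshold. The genes were not tested against each other. The Magel2 call with CytoD was just inside the threshold and was lost in each of the 4 leave-one-out fits that gave it an adjusted p (0.0445 to 0.0681), with the replicate block (0.0581) and with TMM size factors (0.0101).

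The other genes named here from the domain were chosen after their values were seen. Mkrn3, a ring finger gene 36.0 kilobases beyond Magel2, passed in no comparison and had means of 13.5, 17.4, 8.34, 25.2, 39.5 and 31.8 normalized counts in control, CK666, CytoD, siControl, siArp4 and siArp4+CK666. Peg12, which follows it, was lower with CytoD (104 against 218 normalized counts, adjusted p = 6.64e-07) and with CK666 (122 against 218, adjusted p = 9.14e-05), and passed in no comparison within the second experiment. Snrpn, a splicing factor gene 2206 kilobases away, was higher in siArp4 (448 against 247, adjusted p = 6.56e-06) and higher too with CK666 added (511 against 247, adjusted p = 1.35e-08), and CK666 on top of the knockdown left it at a log2 difference of 0.19 (SE 0.168, adjusted p = 0.573). Gm38393 shares 589 exon bases with Snrpn on the same strand and had at most 31.1 counts. Ube3a, which is maternally read in neurons, passed in no comparison within an experiment. Atp10a was lower with CK666 (497 against 1063, adjusted p = 2.50e-08). It was lower and past the adjusted p with CytoD too (671 against 1063, log2 difference -0.66). That result missed the adjusted p with edgeR (0.0125) and with all 18 libraries fitted together (0.0979). It also missed it without CytoD replicate 2 (0.0139) or 3 (0.0125) or control replicate 2 (0.0163). Ube3a shares exon bases with Snhg14 on the other strand. The genes of the domain thus did not all follow Ndn.

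**Figure D4:**
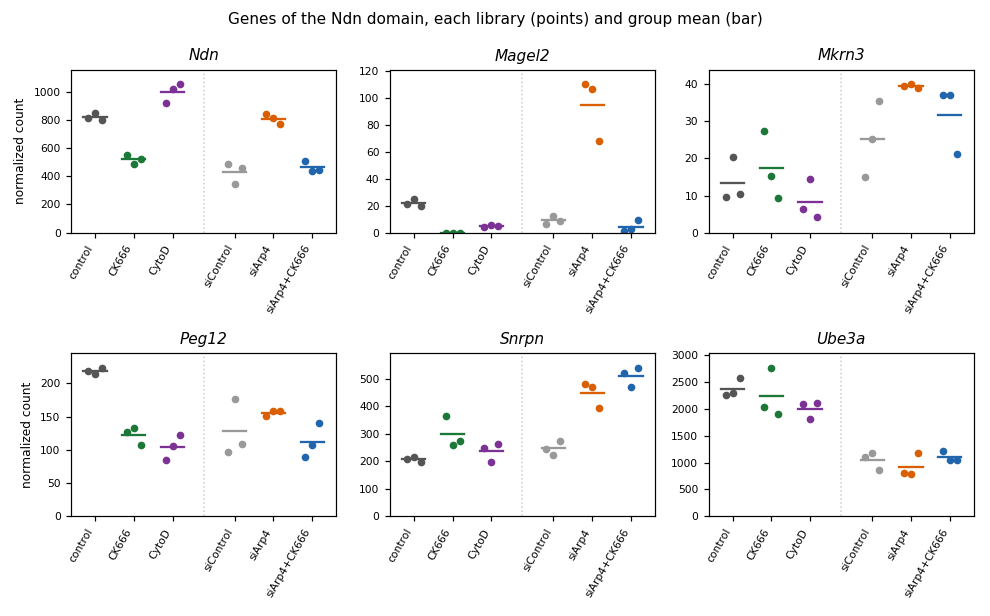
Normalized counts of Ndn and 5 other genes of its chromosome 7 domain in each library (points) with the group mean (bar), on linear axes, with a dotted line between the experiments. Magel2 is at 0 in the 3 CK666 libraries and reaches 110 in siArp4, whereas Snrpn is high in both knockdown groups, at 396 to 539.

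Genes whose 6 group means ran most like a member were picked among 10555 genes averaging 50 or more normalized counts, by the smallest mean absolute difference of centred log2 group means. For Igf2 these were Ahnak2 (0.172) and Slc23a2 (0.176), for Grb10 Camk2d (0.0355) and Cnih1 (0.0397), and for Ndn Zfp407 (0.126) and Prrx1 (0.135). Prrx1 is a homeobox factor of limb and marrow mesenchyme. With all 18 libraries scaled together Prrx1 had means of 8704, 5499 and 11372 normalized counts in control, CK666 and CytoD. Its means were 5389, 8493 and 7372 in siControl, siArp4 and siArp4+CK666. It shares the libraries and their scaling with Ndn.

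Outside the 10 members, 57 other imprinted genes were in the table and 32 of them reached a count of 10 in 3 libraries, while 8 were at 0 throughout. Of those tested, 5 of 33 were called with CK666 (11.0% of all genes), 4 of 32 with CytoD (9.12%), 10 of 31 in siArp4 (16.2%), 10 of 31 in siArp4+CK666 (20.4%) and 5 of 29 in siArp4+CK666 against siArp4 (5.75%). In siArp4 6 were higher and 4 lower, so the knockdown did not move the imprinted genes one way. The median log2 difference of those tested was 0.24 in siArp4, beside -0.05 for all genes, and -0.04 with CK666, beside 0.01.

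Some of them had larger differences than any member called within an experiment. Dcn, a matrix proteoglycan that is imprinted mainly in placenta, had 371, 431 and 443 normalized counts in siArp4 against 25.1, 22.6 and 26.2 in siControl (log2 difference 4.06, SE 0.265, adjusted p = 2.42e-50), and 81.4, 63.0 and 58.0 in siArp4+CK666. Peg10, a retrotransposon-derived gene needed for placenta, was lower in siArp4, from 1022, 373 and 691 to 58.1, 44.3 and 67.1 (log2 difference -3.62, SE 0.402, adjusted p = 1.04e-17). Slc38a4, an amino acid transporter, fell with CK666 from 155 to 34.1 normalized counts (adjusted p = 9.29e-14) and with CytoD to 65.4 (adjusted p = 1.38e-05). Impact, which restrains the stress kinase Gcn2, rose with CK666 from 1933 to 5039 (adjusted p = 4.65e-22) and fell in siArp4 from 1981 to 555 (adjusted p = 2.37e-07). Slc22a2, a cation transporter, was at 22.3, 32.9 and 22.7 with CytoD and at 0.967, 0 and 3.10 in control (adjusted p = 2.49e-05).

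Genes tied to imprint maintenance, enzymes and other factors alike, were read as a list of 17, of which 15 passed the count of 10 in 3 libraries. Of the 15 tested, 2 were called with CK666 (11.0% of all genes) and 2 with CytoD (9.12%), all lower. In siArp4 1 was called higher and 2 lower (16.2%), and in siArp4+CK666 against siControl 1 higher and 3 lower (20.4%). Uhrf1, which brings the maintenance methyltransferase to newly copied DNA, fell from 3968 to 1126 normalized counts with CK666 (log2 difference -1.82, adjusted p = 5.91e-59), to 1418 with CytoD (-1.48, adjusted p = 1.41e-39) and from 1061 to 354 in siArp4 (-1.58, adjusted p = 1.14e-16). Dnmt1, that methyltransferase, fell from 3810 to 946 with CK666 (-2.01, adjusted p = 4.64e-43) and to 1504 with CytoD (-1.34, adjusted p = 1.21e-19), and was at 974 against 1209 in siArp4 (adjusted p = 0.387). Both act in dividing cells. Of 10 proliferation markers 9 were called lower with CK666, 8 with CytoD, 9 in siArp4, 9 in siArp4+CK666 and 8 in siArp4+CK666 against siArp4, where 5.75% to 20.4% of all genes were called in either direction. Their summed normalized counts were 48113 to 49447 in control, 20144 to 21288 with CK666, 22273 to 22979 with CytoD, 19018 to 19448 in siControl, 8315 to 8977 in siArp4 and 3881 to 4229 in siArp4+CK666. Ccna2, Mki67, Plk1, Ccnb1, Aurkb and Bub1 changed most among them. Their part in the levels of Igf2 and Ndn was not tested, and in bulk RNA fewer cells of a type and less RNA per cell cannot be told apart.

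Adipocyte markers moved as well. Of 4 tested, 3 were called higher with CK666 (11.0% of all genes in either direction) and 3 with CytoD (9.12%). In siArp4 2 were called lower (16.2%), and in siArp4+CK666 against siControl none was called (20.4%). All 3 tested were called higher in siArp4+CK666 against siArp4 (5.75%). Adipoq, Plin1 and Cidec were those called in more than 1 comparison. Their summed counts were 896 to 906 in control, 1654 to 2469 with CK666 and 2213 to 2566 with CytoD. They were 2148 to 3012 in siControl, 1191 to 1356 in siArp4 and 3523 to 4315 in siArp4+CK666. Within the first experiment the group medians had the order of Igf2, with CK666 and CytoD ranges that overlapped. Within the second the order was that of neither Igf2 nor Ndn. None of the 4 osteoblast markers reached a count of 10 in 3 libraries, though Bglap was called higher with both drugs, at 0 in the control libraries and a mean of 9.16 with CK666. The skeletal muscle list rested on Des, the only 1 of 4 to pass, and summed to 708 to 786 counts in control and 33.9 to 81.2 in siArp4.

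Of 10 relatives of the members outside imprinted domains 9 passed the count of 10 in 3 libraries. With CK666 2 of 9 were called, both lower, against 11.0% of all genes. With CytoD none of 9 was called, against 9.12%, and 3 were past the adjusted p and higher, against 29.6% in either direction. Maged2, a MAGE family relative of Ndn on the X chromosome, had 2723, 2756 and 2548 normalized counts in control, 1295, 1203 and 1210 with CK666 (log2 difference -1.11, SE 0.0849, adjusted p = 2.05e-37) and 4490, 4541 and 4811 with CytoD (0.79, SE 0.0826, adjusted p = 6.79e-20). Transfected cells had 6119, 6133 and 6636 in siControl, 6481, 6101 and 5983 in siArp4 and 2028, 2153 and 2244 with siArp4+CK666. Maged2 was lower with CK666 in both experiments, as Ndn was, and in siArp4 against siControl its log2 difference was -0.02 (SE 0.110, adjusted p = 0.894), where Ndn rose.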

How the data were processed

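The authors quantified unstranded paired reads with Salmon 1.2.1 against GENCODE transcripts of GRCm38 and deposited expected counts per gene, not scaled between libraries; how transcripts were summed to genes is not given in the sources used here. Estimated counts were rounded to whole numbers. Coordinates, exon lengths and symbols came from an earlier GENCODE release of the same build (54094 of 54347 identifiers matched), sequences from RefSeq tables. DESeq2 1.42.0 (R 4.3.3) fitted the 9 libraries of each experiment with group as the only term, and all 18 for siControl against control and for the difference of the CK666 effects. Its two-sided Wald test was adjusted by Benjamini-Hochberg over all genes with filtering at 0.01. A gene was called past a log2 fold change of 1 and an adjusted p under 0.01. Intervals are normal 95% intervals of the fold change. edgeR 4.0.16 was an alternative, beside TMM size factors, a filter (10 counts in 3 libraries), no fold minimum, 18 libraries in a single fit, a replicate block and leaving out each library. The calculation was tested on simulated data. The 3 libraries of a group are, by the study's methods, distinct preparations of the same cells, so p-values measure the spread between preparations.

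Members and lists were chosen with earlier results of these data known. Named were all members, up to 6 genes of each list called in at least 2 comparisons within an experiment, by size of change, and for members with a mean of 50 normalized counts the 2 most alike (Igf2, Ndn and Grb10); genes outside this rule are said to be chosen later. Limits and floors cover counting error only.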

Additional observations from a re-analysis of the deposited data

Results flagged for a closer look

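No member passed the test of a different response to CK666 in untransfected and knockdown cells. Among the other genes named here 7 passed it, by the test of the difference itself, the CK666 effect in knockdown cells minus that in untransfected cells, adjusted over all genes by DESeq2. For Dcn it was -4.32 on the log2 scale (SE 0.699, adjusted p = 4.31e-08), with means of 2.29 and 7.51 normalized counts without and with CK666 in untransfected cells and 415 and 67.4 in knockdown cells, and it was -5.54 without control replicate 2. For Peg10 it was 2.31 (SE 0.466, adjusted p = 2.67e-05), with means of 1539 and 783 in untransfected and 56.5 and 144 in knockdown cells, and the rise within knockdown cells missed the adjusted p with edgeR (0.0644) and in 5 of 6 leave-one-out fits, those without any siArp4 library or without siArp4+CK666 replicate 1 or 2 (0.0223 to 0.0988). For Maged2 it was -0.42 (SE 0.105, adjusted p = 0.00126), and it missed the adjusted p with edgeR (0.0442), without control replicate 3 (0.0121) and without siArp4 replicate 1 (0.0125). Among the mesenchymal markers it was -3.05 for Ly6a (adjusted p = 5.65e-26), -0.77 for Cd44 (adjusted p = 0.00127) and 1.36 for Cxcl12 (adjusted p = 1.40e-22). For Ccna2, a proliferation marker, it was -1.18 (adjusted p = 2.67e-13). Transfection and knockdown cannot be told apart in this contrast. Groups of 3 libraries are too small for a test of single outlying samples.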

How the results depend on the processing

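Over 1174 values of single genes under the alternatives, 1058 kept their direction and their side of the adjusted p, 104 lost it, 2 gained it and 10 changed sign, all 10 on leaving out a library. With no fold minimum the members called numbered 1 in CK666 against control, 3 in CK666 against CytoD, 2 in siArp4 against siControl, 1 in siArp4+CK666 against siControl and 1 in siArp4+CK666 against siArp4. With edgeR and with 18 libraries fitted together the 1 member called in CK666 against CytoD became 0. With edgeR the members past the adjusted p were 1 in siArp4, 0 in siArp4+CK666 against siControl and 0 in siArp4+CK666 against siArp4, and genes called were 466 against 811 in the last and 384 against 597 in the difference of the CK666 effects. In siControl against control the members called were 1 in place of 2 with TMM size factors, edgeR or the replicate block. With the replicate block 0 members were past the adjusted p in siArp4+CK666 against siControl (Igf2, 0.0103). Replicate numbers do not pair the libraries: 5 of 18 correlations between same-numbered libraries were over 0.1 (-0.51 to 0.71, over 11159 genes). Leaving out each library in turn gave 1 to 2 members past the adjusted p in CK666 against control, 1 to 2 called and 1 to 2 past it in CytoD against control, 0 to 1 called in CK666 against CytoD, 0 to 1 called and 1 to 2 past it in siArp4 against siControl, 0 to 1 past it in siArp4+CK666 against siControl and against siArp4, and 1 to 2 called in siControl against control. The signs that turned belonged to differences that had not passed: Mest in CK666 against control (-0.032 to 0.60), in siArp4+CK666 against siArp4 (-0.71 to 0.41), in siControl against control (-0.37 to 0.50) and in the difference of the CK666 effects (-0.95 to 0.16), Ndn in siArp4+CK666 against siControl (-0.030 to 0.21), and Igf2 (-0.13 to 0.14) and Grb10 (-0.17 to 0.053) in siArp4+CK666 against siArp4. Causes were not tested. Depth limits H19, Meg3, Peg3, Plagl1, Cdkn1c and Dlk1, whose counts were near 0 in many libraries.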
